A study of Mus musculus with 8 samples.

Results

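The transcripts described here encode 39 proteins of blood coagulation and complement that the liver secretes into plasma. They were chosen by gene symbol from a list of clotting factors, their inhibitors and complement proteins, and all 39 symbols were found among the 45777 genes of the deposited table. All 39 also passed the filter on low counts, which kept 15686 genes. Of the members, 19 belong to coagulation and fibrinolysis and 20 to complement.

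Polyadenylated liver RNA was sequenced from male C57BL6 mice in 8 libraries. The C2-AKT group (4 libraries, numbered 2 to 5 in their titles) carried Alb-Cre and a ROSA26-C2-AKT allele, so that Cre made under the albumin promoter allows hepatocytes to express C2-AKT. AKT is a kinase of insulin signalling, and the labels do not describe the C2 form further. The control group (4 libraries, also numbered 2 to 5) is labelled wild type and C2-AKT (-/-), and the labels do not say whether it carried Cre. Both groups ate high-fat food for 10 weeks, starting when 8 weeks old, so no library shows a liver on the standard diet. Nothing in the labels ties each library to a separate mouse, and p-values therefore measure the spread between libraries, which may be technical. The series addresses the effects of C2-AKT expression in hepatocytes on diet-induced insulin resistance.

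Coagulation is a cascade of serine protease zymogens that ends with thrombin cutting fibrinogen into fibrin, while antithrombin, heparin cofactor II and the protein C system hold it back and plasmin dissolves the clot. Complement is started by the C1 proteases or by lectins that bind microbial sugars, proceeds through the C4, C2 and C3 convertases, and ends with the pore formed from C5 to C9. Hepatocytes make most of these plasma proteins. Fibrinogen is the classic acute phase member, and its genes respond to interleukin-6.

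Total counts ranged from 52.0 to 63.8 M per C2-AKT library and from 51.4 to 62.2 M per control library (M, 1e6 estimated counts). The label check at the ROSA26 locus gave 0.422 ± 0.331 CPM of Gt(ROSA)26Sor in C2-AKT livers and 6.12 ± 1.55 CPM in control livers (SD, n = 4; CPM, counts per 1e6 counts of the TMM-scaled library). Akt1 stood at 42.7 ± 10.1 and 41.4 ± 7.43 CPM, Akt2 at 85.2 ± 15.2 and 94.1 ± 17.2 CPM, and Alb at 63875 ± 5450 and 54614 ± 10588 CPM in C2-AKT and control livers. C2-AKT replicate 5 stood apart: 10 pancreatic acinar genes took 8.94% of its counts, against 0.000747% to 0.00265% in the other libraries. Before CPM were computed, the filter on low counts removed 17.2% of the counts of this library. In the other libraries it removed 0.0320% to 0.0478%. Titles of C2-AKT replicate 2 and control replicate 5 carry no ending, that of C2-AKT replicate 5 ends in "_2" and the other 5 end in "_1". The number before the replicate number is 4 in all C2-AKT titles and 2 in all control titles, so whatever it marks cannot be told apart from genotype. The labels explain neither the endings nor this number. On the first principal component (27.8% of the variance), C2-AKT replicate 5 lay at 57.2, C2-AKT replicate 2 at -26.7 and control replicate 5 at -37.1, and the 5 libraries ending in "_1" between -5.18 and 8.03. Of 8 hepatocyte markers 0 were called, with a median log2 fold change of 0.03. Summed marker levels were 1.44 to 2.19 TPM in C2-AKT and 1.65 to 2.62 TPM in control livers for 6 platelet markers, 118 to 172 and 139 to 184 TPM for 7 macrophage markers, 128 to 186 and 138 to 172 TPM for 7 sinusoidal endothelial markers, and 154 to 217 and 159.7 to 199.5 TPM for 7 stellate cell markers. For 6 cholangiocyte markers they were 28.0 to 43.2 TPM in C2-AKT and 27.9 to 49.7 TPM in control livers, and for 6 neutrophil markers 3.98 to 7.20 and 4.87 to 13.5 TPM. For macrophage, endothelial and stellate cell markers the lowest C2-AKT sum was that of C2-AKT replicate 5, whose TPM total includes its pancreatic transcripts. In such whole-liver RNA, fewer cells of a type and less RNA per cell cannot be told apart.

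The promoters of the fibrinogen genes are shown because these transcripts varied most between livers and were high and low in the same ones, and those of C8a and C8b because these neighbouring genes are both among the members with the smallest p. The sequences are RefSeq promoter windows of GRCm38.p6, up to 250 bases before the start used for each window, 5′ to 3′ on the gene's strand. The RefSeq interval of C8a runs to 104876487 on the minus strand. The part of its window from 104876487 to 104876399 therefore lies inside that interval. The Fga stretch ends 78 bases before the start, because a GENCODE transcript of Fga begins there. Capitals mark 3 motifs searched on both strands, where a match on the other strand reads as its complement reversed. The matches do not overlap each other in the stretches shown. The motifs were CTGGGA (the core of the interleukin-6 element of fibrinogen genes), TTGCNNAA (a C/EBP core) and GTTAAT (an HNF1 half-site).
Fga, chr3:83025903-83026075, plus strand: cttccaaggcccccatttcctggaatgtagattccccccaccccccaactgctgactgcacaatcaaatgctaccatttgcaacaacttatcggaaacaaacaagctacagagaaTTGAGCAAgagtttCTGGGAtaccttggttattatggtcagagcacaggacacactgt
Fgb, chr3:83049864-83050113, minus strand: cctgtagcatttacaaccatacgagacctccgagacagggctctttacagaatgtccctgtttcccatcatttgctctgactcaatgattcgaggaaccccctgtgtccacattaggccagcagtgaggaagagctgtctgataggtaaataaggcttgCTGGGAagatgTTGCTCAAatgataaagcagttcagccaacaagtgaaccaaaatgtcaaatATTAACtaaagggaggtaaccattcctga
Fgg, chr3:83007474-83007723, plus strand: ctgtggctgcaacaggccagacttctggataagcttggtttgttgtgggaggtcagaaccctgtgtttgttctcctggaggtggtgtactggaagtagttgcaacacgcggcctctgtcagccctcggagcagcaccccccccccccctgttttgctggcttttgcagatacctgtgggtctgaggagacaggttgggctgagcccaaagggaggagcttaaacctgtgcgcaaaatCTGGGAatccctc
C8a, chr4:104876399-104876648, minus strand: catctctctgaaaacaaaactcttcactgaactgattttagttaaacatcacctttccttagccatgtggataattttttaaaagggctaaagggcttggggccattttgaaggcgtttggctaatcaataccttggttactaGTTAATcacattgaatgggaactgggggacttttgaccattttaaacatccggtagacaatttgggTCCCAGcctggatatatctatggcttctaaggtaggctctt
C8b, chr4:104766067-104766316, plus strand: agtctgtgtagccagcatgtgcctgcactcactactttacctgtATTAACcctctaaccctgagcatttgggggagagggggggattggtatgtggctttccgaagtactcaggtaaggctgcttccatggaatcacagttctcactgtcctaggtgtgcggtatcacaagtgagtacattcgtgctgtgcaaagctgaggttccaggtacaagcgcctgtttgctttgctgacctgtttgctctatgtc
All searches and shares below cover the 250 bases before the start. The CTGGGA motif was found there in all 3 fibrinogen genes and in C8a, against 27% of all 32851 mouse promoter windows. The C8a match, 41 bases before the start used, lies in the part of the window that is inside the C8a interval. The motif began 121 bases before the start of Fga, 91 before Fgb and 13 before Fgg. TTGCNNAA stood beside it in the Fga and Fgb windows (9.56% of all windows), and GTTAAT in the Fgb, C8a and C8b windows shown (6.43% of all windows). A further GTTAAT lies 43 bases before the start of Fga, in the stretch not shown. Windows were matched for 30 members, with 32 windows in all, of which 15 held CTGGGA, 8 TTGCNNAA and 9 GTTAAT. A match is a description of the letters only.

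The members together held 2.30% to 2.60% of the deposited TPM (transcript abundance scaled to length and to a common library total) in C2-AKT livers and 2.43% to 3.33% in control livers. Their summed level was 24506 ± 1247 TPM in C2-AKT and 28772 ± 4455 TPM in control livers (SD, n = 4). The fibrinogen chains alone held 0.615% to 1.07% of TPM in C2-AKT livers and 0.740% to 1.52% in control livers. TPM of C2-AKT replicate 5 is measured against a total that includes its pancreatic transcripts. In length-scaled levels Fgb came first, at 3230 ± 822 TPM in C2-AKT and 4742 ± 1435 TPM in control livers. It was followed by Fgg, C3 (2611 ± 510 and 2399 ± 268 TPM) and Fga, whose ranges overlapped one another. Vtn, Kng1, Serpinc1, Plg and F2 averaged between 1105 and 1651 TPM over all libraries. At the low end stood Pros1 (30.7 ± 2.63 and 31.1 ± 4.90 TPM), F11, F7 and C2, so the members spanned about 2 orders of magnitude.

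**Figure D1:**
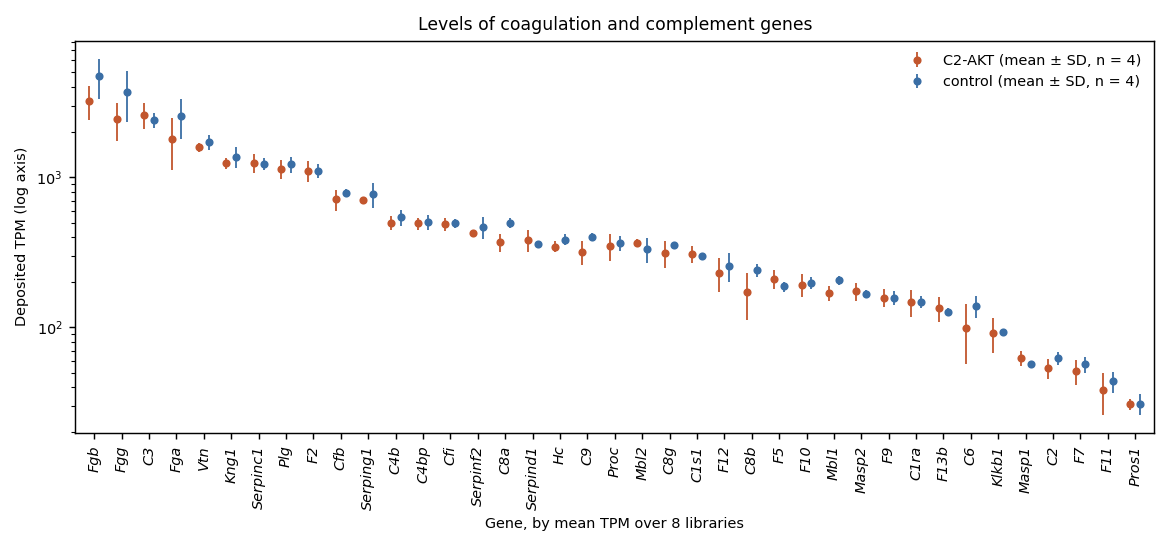
Deposited TPM of the 39 members on a log axis, ordered by the mean over all 8 libraries; points are group means and bars are SD (n = 4 libraries each), with C2-AKT left of control. Fibrinogen chains and C3 stand at the top and Pros1 (30.7 TPM in C2-AKT, 31.1 TPM in control livers) at the bottom.

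No member was called higher or lower in C2-AKT livers. In the two-sided quasi-likelihood test of edgeR, at a threshold of 0.05 after Benjamini-Hochberg adjustment over all genes, 0 of the 39 members passed, against 0.0255% of all genes tested. Their edgeR adjusted p values ran from 0.822 for C8a to 0.999988 for F9. DESeq2 also called 0 members, against 0.185% of all genes tested called higher and 0.173% lower, and limma-voom called 0 members, against 0.0191% lower. At an unadjusted p below 0.05, 4 members were lower (C8a, Mbl1, C9 and C8b; 2.67% of all genes tested) and 0 higher (2.46%), against 5.13% of all genes tested in either direction. The count of 4 became 2 when C2-AKT replicate 4 or control replicate 2, 3 or 5 was left out. The shares of all genes tested that were lower at that level were then 1.93%, 2.01%, 2.24% and 4.26%. The count was 6 when C2-AKT replicate 2 was left out (3.37% of all genes tested). It was 9 among titles ending in "_1" (4.31%) and 7 with title endings as covariates (4.63%). The median log2 fold change of the members was -0.10, beside -0.01 over all genes tested, with 28 negative and 11 positive values (51.9% of all genes tested were negative). Groups did not overlap for 1 member, Mbl1, which was lower in C2-AKT livers (1.63% of all genes tested were lower without overlap, and 1.35% higher). The log2 fold changes lay between -0.58 (Fgg) and 0.17 (F5).

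**Figure D2:**
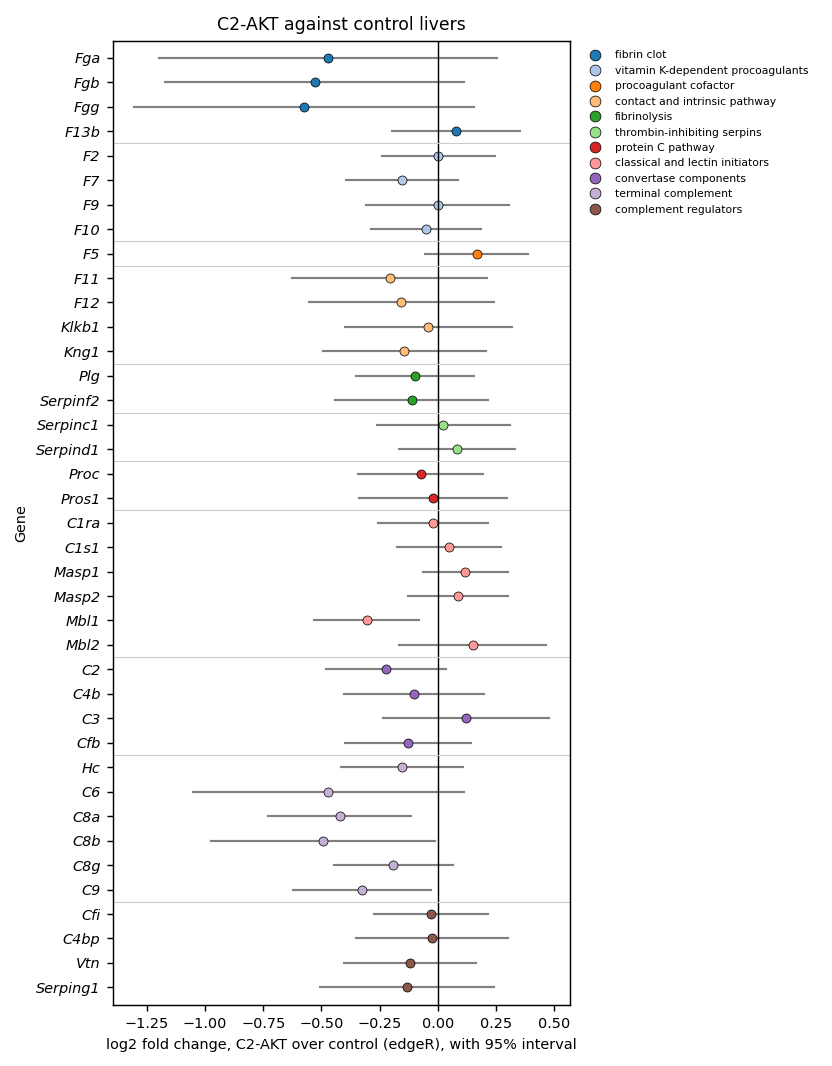
edgeR log2 fold change (C2-AKT over control) of each member with its 95% interval, coloured by role. The points lie between -0.58 (Fgg) and 0.17 (F5); the intervals of Mbl1, C8a, C8b and C9 lie wholly below 0 before adjustment for multiple testing, and those of the fibrinogen chains are among the widest.

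Fibrinogen, the substrate of the clot, is built from the α, Bβ and γ chains encoded by Fga, Fgb and Fgg, which lie side by side on chromosome 3 (Fgg at 83007724 to 83015056, Fga at 83026153 to 83033627 and Fgb at 83042246 to 83049863, GRCm38). Fgb stood at 3125, 2609, 2468 and 5115 CPM in C2-AKT replicates 2 to 5, against 5253, 3841, 3211 and 6917 CPM in control replicates 2 to 5. Fgg stood at 2544, 1902, 1730.3 and 3919 CPM in C2-AKT replicates 2 to 5, against 4139, 2725, 2377 and 5809 CPM in control replicates 2 to 5. Fga, whose library values are added here after they were seen, stood at 2964, 2786, 2612 and 6415 CPM in C2-AKT replicates 2 to 5, against 5868, 4079, 3423 and 7122 CPM in control replicates 2 to 5. All chains were highest in control replicate 5 and lowest in C2-AKT replicate 4. C2-AKT replicate 5 lay inside the control range for each chain, and the other 3 C2-AKT libraries lay below every control library for Fga and Fgb but not for Fgg. The log2 fold change was -0.53 for Fgb (95% interval -1.17 to 0.11), -0.58 for Fgg (-1.31 to 0.15) and -0.47 for Fga (-1.20 to 0.26), with edgeR adjusted p values from 0.995 to 0.9999.

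The sign for the 3 chains was negative under every scaling, filter and test tried and with each library left out, but its size rested on single libraries. Without C2-AKT replicate 5, which holds the pancreatic transcripts, the log2 fold changes were -0.88 for Fga, -0.81 for Fgb and -0.87 for Fgg (unadjusted edgeR p 0.00573, 0.0107 and 0.0189, adjusted p 0.708 to 0.900). Without control replicate 5 they were -0.27, -0.30 and -0.29 (unadjusted p 0.297 to 0.436). Among the libraries whose titles end in "_1", 2 C2-AKT and 3 control, they were -0.72, -0.69 and -0.76 (adjusted p 0.502 to 0.511). In a fit with title endings as covariates, where C2-AKT replicate 5 is alone in its ending and adds nothing to the estimate, they were -0.88, -0.82 and -0.89 (adjusted p 0.275 to 0.286). With the replicate numbers as a term they were -0.52, -0.53 and -0.56. The unadjusted edgeR p values of that fit were 0.0187, 0.00582 and 0.00318, and the adjusted p ran from 0.735 to 0.9999. In both groups each chain fell in the order of replicates 5, 2, 3 and 4. The labels do not say that the numbers pair animals. The chains kept similar proportions: the ratio of Fgg to Fgb TPM was 0.700 to 0.812 in C2-AKT and 0.708 to 0.838 in control livers. Fga to Fgb was 0.482 to 0.636 in C2-AKT and 0.523 to 0.568 in control livers, highest in C2-AKT replicate 5.

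Other acute phase genes, listed without the members, stood beside fibrinogen as follows. All 22 were tested, 0 were called, and all 22 had a negative log2 fold change (51.9% of all genes tested were negative). Their median was -0.37, beside -0.01 over all genes tested. The list, which includes Ahsg, was not split into genes that rise and genes that fall in an acute phase response. Saa2, a serum amyloid, had the smallest p of this list, at 44.2, 81.7, 51.7 and 157 CPM in C2-AKT replicates 2 to 5, against 371, 96.3, 1025 and 452 CPM in control replicates 2 to 5 (log2 fold change -2.54 ± 0.64, SE; edgeR adjusted p = 0.652). Saa1 and Orm3 were also below 0.05 before adjustment, with log2 fold changes of -2.01 and -0.99. C2-AKT replicate 5 was the highest C2-AKT library for Saa1 and Saa2 as for the fibrinogen chains, but control replicate 4, the lowest control library for fibrinogen, was the highest for both serum amyloids. Saa1 and Saa2 are near-identical genes, so their single values are uncertain.

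The F13b gene, which encodes the carrier subunit of the clot-stabilising factor XIII, lies apart from the chains on chromosome 1 and did not share their pattern. It ranged from 156 to 219 CPM in C2-AKT and from 167 to 207 CPM in control livers (log2 fold change 0.08, -0.20 to 0.35).

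**Figure D3:**
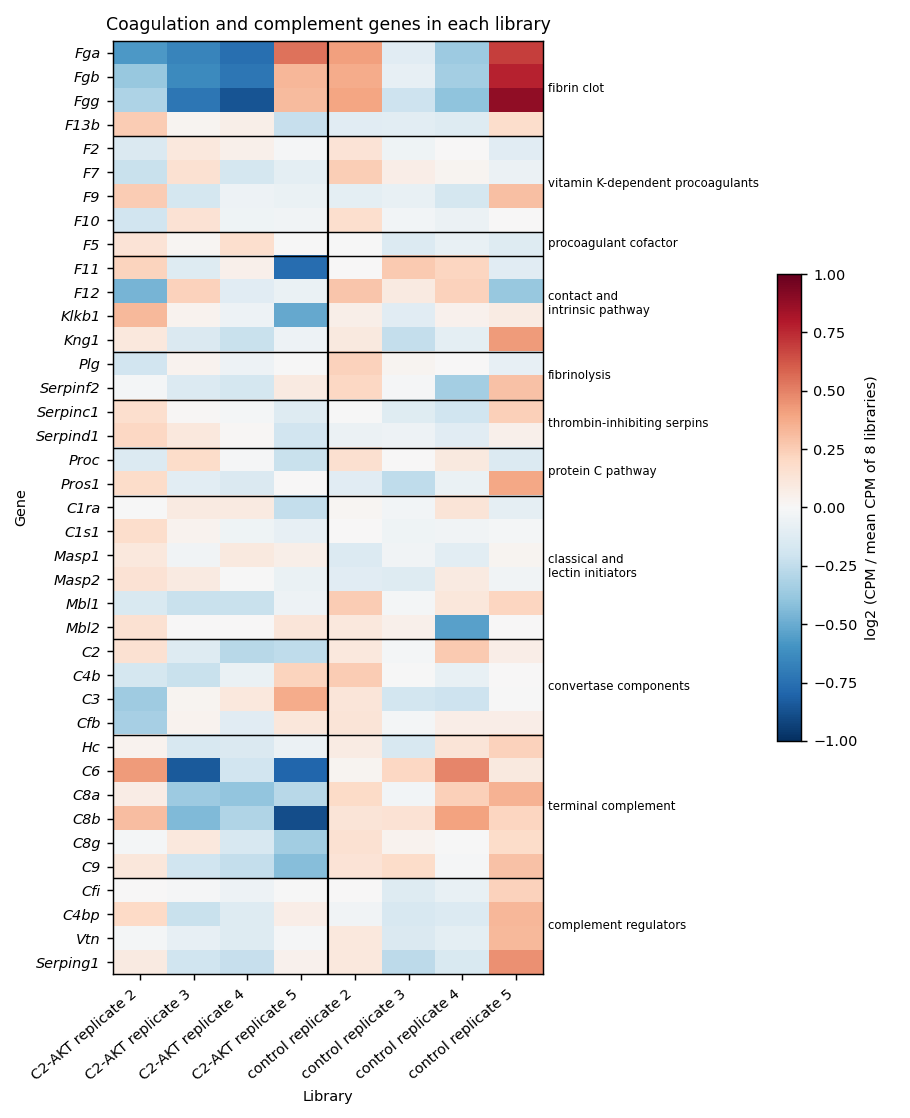
Each member (rows, grouped by role) in each library (columns, C2-AKT left of control) as log2 of its CPM over its mean CPM in the 8 libraries; red is above and blue below that mean. The fibrinogen rows are lowest in C2-AKT replicate 4 and highest in control replicate 5, while C6 and C8b are low in C2-AKT replicates 3 and 5.

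Vitamin K-dependent zymogens are carboxylated on their Gla domains so that they bind phospholipid surfaces. Prothrombin, F2, the precursor of thrombin and the most abundant of this role, stood at 1189.7, 1418, 1361 and 1306 CPM in C2-AKT replicates 2 to 5, against 1448, 1278, 1322 and 1218 CPM in control replicates 2 to 5. The groups overlapped almost wholly, and the log2 fold change was 0.00 (95% interval -0.24 to 0.25). F9 (0.00, -0.31 to 0.31), F10 (-0.05, -0.29 to 0.19) and F7, the partner of tissue factor (-0.15, -0.39 to 0.09), overlapped as well. For these 4 genes the intervals allow a difference of at most 0.39 on the log2 scale in either direction. The vitamin K cycle and secretion genes were all tested (10 of 10), and 0 were called or below an unadjusted p of 0.05, the median log2 fold change being -0.03.

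F5, the cofactor with which factor Xa converts prothrombin, had the highest log2 fold change of the members (0.17 ± 0.10, SE, -0.06 to 0.39). It stood at 958, 881, 976 and 866 CPM in C2-AKT replicates 2 to 5, against 868, 793, 824 and 795 CPM in control replicates 2 to 5. Only control replicate 2 reached into the C2-AKT range.

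In the contact and intrinsic pathway all 4 log2 fold changes were negative and 0 were called. Kng1, the kininogen from which plasma kallikrein releases bradykinin, stood at 1648, 1384, 1308 and 1477 CPM in C2-AKT replicates 2 to 5, against 1638, 1297, 1432 and 2057 CPM in control replicates 2 to 5. Control replicate 5 was the only library above the range of the other group. The log2 fold change was -0.14 (-0.49 to 0.21), and it was -0.0017 without that library. Kng1 shares 17.95% of its 50-base stretches with Kng2. F11 (-0.21), F12 (-0.16) and the prekallikrein gene Klkb1 (-0.04) each had overlapping groups. F11 and Klkb1, neighbours on chromosome 8 with 4.63 kb between them, both had their lowest value in C2-AKT replicate 5, at 32.7 and 198 CPM, against 50.6 CPM or more and 262 CPM or more in every other library. Klkb1 shares 42.65% of its 50-base stretches with Gm45753, and the long non-coding RNA gene Gm30504 overlaps F11 by 21397 and Klkb1 by 28148 bases. The part of these genes in the low values was not tested.

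Plasminogen, the zymogen of the fibrin-dissolving protease, is encoded by Plg, which stood at 1670.1, 1958, 1843 and 1902 CPM in C2-AKT replicates 2 to 5, against 2235, 1949, 1911 and 1798 CPM in control replicates 2 to 5 (log2 fold change -0.10, -0.35 to 0.15). Serpinf2, the plasmin inhibitor, had a log2 fold change of -0.11 (-0.44 to 0.22). Both groups overlapped for each.

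Among the brakes of the cascade, antithrombin (Serpinc1) stood at 1639, 1469, 1444 and 1334 CPM in C2-AKT replicates 2 to 5, against 1455, 1343, 1270.4 and 1723 CPM in control replicates 2 to 5. Its log2 fold change was 0.02 (-0.26 to 0.31), and that of heparin cofactor II (Serpind1) 0.08 (-0.17 to 0.33). Protein C (Proc), which inactivates the factor V and VIII cofactors, stood at 313, 391, 339.8 and 295 CPM in C2-AKT replicates 2 to 5, against 384, 344, 367 and 313 CPM in control replicates 2 to 5. The log2 fold change was -0.07 (-0.34 to 0.19) for Proc and -0.02 (-0.34 to 0.30) for its cofactor protein S (Pros1). None of these 4 genes separated the groups.

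Of 29 other coagulation and fibrinolysis genes, 26 were tested and 0 were called, with a median log2 fold change of -0.02. At an unadjusted p below 0.05, Adamts13, the protease that cuts von Willebrand factor, had the value 0.30 for its log2 fold change (adjusted p = 0.956 in edgeR). Cpb2, a carboxypeptidase that slows fibrinolysis, had one of -0.37 (edgeR adjusted p = 0.968). Cpb2 stood at 239.7 to 323 CPM in C2-AKT and 285 to 468 CPM in control livers.

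Complement starts with recognition proteins and their proteases. Mbl1, a mannose-binding lectin (chromosome 14, 41151456 to 41163904), stood at 277, 264, 264 and 298 CPM in C2-AKT replicates 2 to 5, against 369, 304, 334 and 358 CPM in control replicates 2 to 5. All 4 C2-AKT libraries lay below all 4 control libraries, by the margin between 298 CPM in C2-AKT replicate 5 and 304 CPM in control replicate 3. The means were 276 ± 16.2 CPM in C2-AKT and 341 ± 28.6 CPM in control livers (SD, n = 4; log2 fold change -0.31 ± 0.10, SE; edgeR adjusted p = 0.832). Its log2 fold change stayed between -0.36 and -0.25 across all alternatives, with a lowest adjusted p of 0.247 by DESeq2. The other mannose-binding lectin gene, Mbl2, stood at 249, 224, 224 and 243 CPM in C2-AKT replicates 2 to 5, against 239.7, 231, 153 and 224 CPM in control replicates 2 to 5, with control replicate 4 alone far below the rest (log2 fold change 0.15, -0.17 to 0.46).

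The lectin proteases Masp1 and Masp2 had log2 fold changes of 0.12 and 0.09, with overlapping groups. The C1 protease genes C1ra and C1s1 lie on chromosome 6, the chromosome of the ROSA26 locus. Their distances to Gt(ROSA)26Sor there are 11.4 Mb for C1ra and 11.5 Mb for C1s1. C1s1 stood at 593, 540.2, 509.6 and 496 CPM in C2-AKT replicates 2 to 5, against 527, 510.4, 514 and 518 CPM in control replicates 2 to 5 (log2 fold change 0.05, -0.17 to 0.27). C1ra stood at 239, 256, 255 and 204 CPM in C2-AKT replicates 2 to 5, against 243, 235, 263 and 226 CPM in control replicates 2 to 5 (-0.02, -0.26 to 0.22). Neither gene separated the groups, and C1s1 varied least of all members, with a coefficient of variation of 5.72% over the 8 libraries. C1ra shares 48.0% of its 50-base stretches with C1rb and C1s1 24.3% with C1s2, so their counts may hold reads of these copies.

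Convertase components carry complement from the initiators to C3, the central component. C3 stood at 5846, 7613, 8026 and 9654 CPM in C2-AKT replicates 2 to 5, against 8137, 6574, 6466 and 7435 CPM in control replicates 2 to 5. C2-AKT replicates 2 and 5 were the lowest and the highest of all libraries, so the control range lay inside that of C2-AKT (log2 fold change 0.12, -0.23 to 0.48). C2, the protease subunit of the classical convertase, stood at 101, 83.0, 74.8 and 75.8 CPM in C2-AKT replicates 2 to 5, against 97.6, 89.4, 109 and 94.8 CPM in control replicates 2 to 5. Here only C2-AKT replicate 2 reached into the control range, and the log2 fold change was -0.22 ± 0.11 (SE; edgeR adjusted p = 0.995). C4b (-0.10) and Cfb, the protease of the alternative convertase (-0.13), overlapped. Cfb lies 0.088 kb from C2 on chromosome 17, and their transcripts share 81.4% and 58.0% of their 50-base stretches with the annotated gene Gm20547. C4b shares 35.2% with C4a, whose log2 fold change was -0.41 (edgeR adjusted p = 0.968).

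Terminal complement assembles the membrane attack pore. Its 6 members (Hc, C6, C8a, C8b, C8g and C9) had negative log2 fold changes, with a median of -0.37 (-0.01 over all genes tested), and 0 were called. C7, the remaining terminal component, is not among the members and was looked up after the values were seen. It was low, at 0.804 ± 0.227 CPM in C2-AKT and 0.647 ± 0.127 CPM in control livers (SD, n = 4), with a positive log2 fold change of 0.31 (-0.31 to 0.94; adjusted p = 0.9999 in edgeR). C8a and C8b, the pore subunits of C8, lie 11.1 kb apart on chromosome 4 (C8b at 104766317 to 104804548, C8a at 104815679 to 104876487). C8a stood at 948, 703, 689 and 747 CPM in C2-AKT replicates 2 to 5, against 1034, 888, 1068 and 1148 CPM in control replicates 2 to 5. C8b stood at 336, 200.1, 221 and 147 CPM in C2-AKT replicates 2 to 5, against 296, 300.3, 358 and 315 CPM in control replicates 2 to 5. For both genes C2-AKT replicate 2 lay inside the control range and the other 3 C2-AKT libraries lay below it. The log2 fold change of C8a was -0.42 ± 0.14 (SE; edgeR adjusted p = 0.822), and that of C8b was -0.49 ± 0.22 (edgeR adjusted p = 0.956).

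C9, the subunit that polymerises into the pore wall (chromosome 15, 6445346 to 6498825), stood at 483, 388, 378 and 332 CPM in C2-AKT replicates 2 to 5, against 491, 505, 443 and 545 CPM in control replicates 2 to 5. C6, which binds C5b (chromosome 15, 4727067 to 4804045), stood at 267, 111, 173 and 115 CPM in C2-AKT replicates 2 to 5, against 202, 229.5, 279 and 212 CPM in control replicates 2 to 5. Again C2-AKT replicate 2 alone reached into the control range. The log2 fold change was -0.33 ± 0.13 for C9 (SE; edgeR adjusted p = 0.929) and -0.47 ± 0.26 for C6 (0.995). C8g, the lipocalin subunit of C8 (-0.19, -0.45 to 0.06), and Hc, which encodes C5 (-0.15, -0.42 to 0.11), were closer to 0 and overlapped.

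Of all single libraries, leaving out C2-AKT replicate 2 shifted the estimates of C8a, C8b, C9 and C6 most. The log2 fold changes were then -0.75 for C8b, -0.79 for C6, -0.54 for C8a and -0.44 for C9 (unadjusted edgeR p 0.000856, 0.00192, 0.00177 and 0.0051), and the adjusted p values were 0.244 to 0.467, so 0 were called. Among libraries whose titles end in "_1" they were -0.59, -0.73, -0.51 and -0.32 (adjusted p 0.250 to 0.508). Without C2-AKT replicate 5 they were -0.33, -0.33, -0.41 and -0.25 (adjusted p 0.924 to 0.9999). The 6 terminal members, which do not include C7, kept a negative sign in each of the 21 alternatives. The C8a interval overlaps that of Fyb2 by 41187 bases, and Fyb2 stood at -0.06 for its log2 fold change and at an average of 3.18 log2 CPM. Other protein-coding genes also overlap C8g, Masp1, Masp2, Serpind1 and F2. C8b varied by 2.44-fold and C6 by 2.51-fold between their highest and lowest library, the widest ranges among the complement members.

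**Figure D4:**
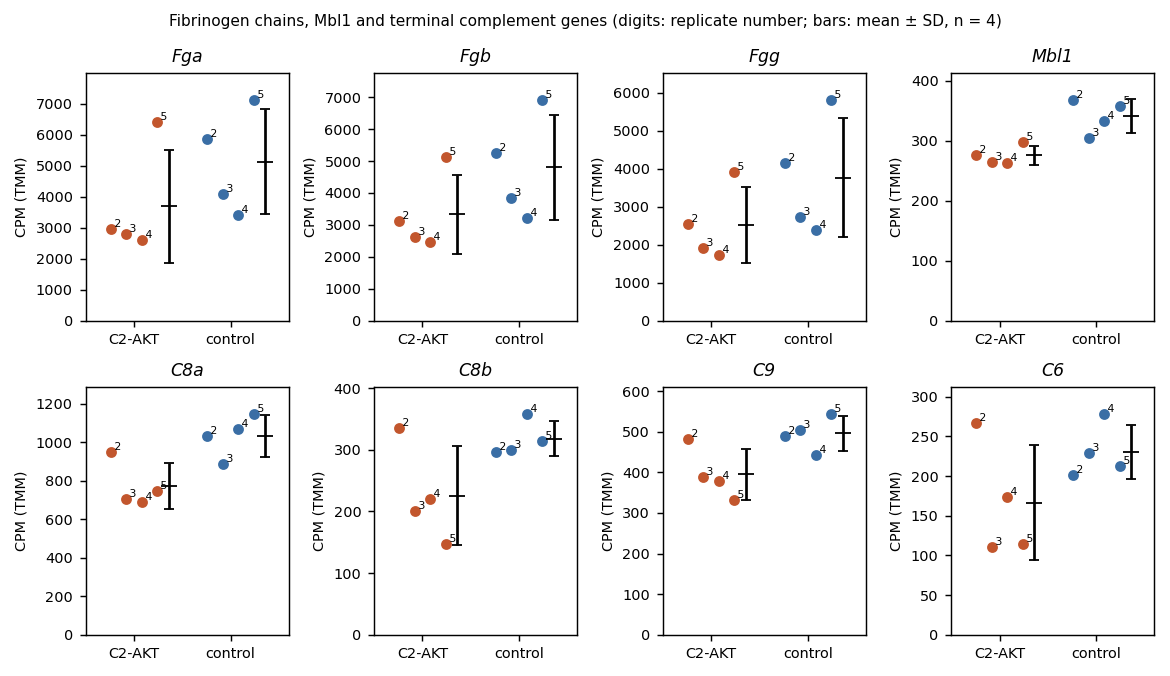
CPM after TMM scaling of the fibrinogen chains, Mbl1 and 4 terminal complement genes in each library (digits are replicate numbers), with the group mean and SD (n = 4) beside the points and C2-AKT left of control. Within the C2-AKT group, replicate 5 is the high point for fibrinogen (6415 CPM for Fga) and replicate 2 the high point for C8a, C8b, C9 and C6.

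The regulators of complement overlapped between groups, with 4 negative log2 fold changes and 0 called. Vitronectin (Vtn), which keeps the terminal complex off membranes, was the most abundant of them. It stood at 1679, 1609.6, 1553 and 1685 CPM in C2-AKT replicates 2 to 5, against 1828, 1539, 1588 and 2135 CPM in control replicates 2 to 5 (log2 fold change -0.12, -0.40 to 0.17). Cfi, the protease that inactivates C3b and C4b (-0.03), its cofactor C4bp (-0.03) and the C1 inhibitor Serping1 (-0.13) each had their highest value in control replicate 5. The sign for Cfi and C4bp turned to positive when libraries were scaled by their totals alone, or by totals that omit the 20 most abundant genes.

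Of 31 other complement genes, 29 were tested and 0 were called, with a median log2 fold change of -0.03. Colec10, a collectin of the lectin pathway, stood at 31.7 to 42.6 CPM in C2-AKT and 27.1 to 30.5 CPM in control livers, without overlap (log2 fold change 0.31; edgeR adjusted p = 0.854). Cfd, the adipocyte-made protease that activates factor B, was lower in mean, with a log2 fold change of -1.33 (adjusted p = 0.930 in edgeR). Of 7 adipocyte markers, which include Cfd, 4 were tested and 0 called, the median log2 fold change being -0.65 and the single values -3.44 for Cidea, -1.33 for Cfd, 0.02 for Adrb3 and 0.53 for Car3. Cidea stood at 0.0866 to 1.25 CPM in C2-AKT and 1.52 to 12.9 CPM in control livers, without overlap (adjusted p = 0.483 in edgeR). The summed level of the 7 markers was 2087 to 4786 TPM in C2-AKT and 1932 to 3044 TPM in control livers. Most of it came from Car3, so the sum was not taken as a level of adipocytes. The markers left untested had not passed the filter on low counts. The part of adipocytes in the value of Cfd was not tested. Of 15 liver transcription factors 0 were called. Foxa2 (0.59; edgeR adjusted p = 0.779) and Prox1 (-0.66; 0.787) had the smallest unadjusted p, at 0.0096 and 0.0105.

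The fibrinogen chains had the highest coefficients of variation over the 8 libraries, at 44.0% for Fgg, 40.7% for Fga and 38.3% for Fgb, followed by C6 (31.6%) and C8b (27.2%). Members of the same roles varied less, such as F13b (11.8%) in the fibrin clot and Hc (10.3%) in terminal complement. F2, Masp1, Masp2, C1s1, Cfi, F5, C1ra and F10 stayed below 8%. Fgg differed by 3.36-fold between its highest library, control replicate 5, and its lowest, C2-AKT replicate 4.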

How the data were processed

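Values were taken from the 1 deposited table, which holds estimated counts, FPKM and TPM for each gene in each library, every column matched to a library by its title. The deposited estimated counts are whole numbers, and the counting step is not given in the sources here. The deposited FPKM and TPM are scaled to length and library per the file headers. The authors name StringTie 2.1.3b, HISAT2 2.1.0, bcl2fastq 2.20.0 and Trimmomatic, and the builds mm10 and GRCm38, in the submitters' processing notes. The strand of the libraries is not stated, so reads of overlapping genes cannot be told apart. Counts were filtered with filterByExpr, scaled by TMM and tested with edgeR 4.0.16 (quasi-likelihood, two-sided, Benjamini-Hochberg over 15686 genes, no covariate), which was tested on simulated data. DESeq2 1.42.0 and limma 3.58.1 were used for alternatives. Standard errors are the log2 fold change over the square root of F. Depth is 51.4 to 63.8 M counts per library. Members and lists were chosen with earlier results of these data known. Values in every library are printed for the 8 members with the smallest p, the most abundant member of each role and members within 20 Mb of Gt(ROSA)26Sor; from other lists, genes called or up to 3 below an unadjusted p of 0.05. Fga, C8g, Hc, C7, Fyb2, C4a and the adipocyte markers were described after their values were seen. Coordinates and promoters are from RefSeq for GRCm38.p6. Gene coordinates matched all 39 members there, and promoter windows outside chromosome 18 matched 30 of them. Shared stretches were counted over GENCODE M21 transcripts.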

Additional observations from a re-analysis of the deposited data

Results flagged for a closer look

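Chance alone sets about 1 in 20 groups of 4 apart by the measure used here, and 2 of 78 groups (39 members in either genotype) were set apart. Fga in C2-AKT replicate 5 stood at 6415 CPM, with the next C2-AKT library at 2964 and the lowest at 2612 CPM. F13b in control replicate 5 stood at 207 CPM, with the other 3 control libraries at 167 to 169.9 CPM.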

How the results depend on the processing

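In edgeR, DESeq2, limma-voom and limma on the deposited FPKM or TPM, and in all 21 alternatives, 0 members and 0 genes of the other lists were called. The members' median log2 fold change was negative in all of them, and ranged from -0.12 to -0.05 with each library left out. Counts over all genes did change. Higher genes numbered 1 with library totals alone, 1 with library sizes without the 20 most abundant genes, 1 with title endings as covariates and 29 by DESeq2, against 0 in edgeR with all libraries; lower genes numbered 27 by DESeq2 and 17 among titles ending in "_1", against 4. With each library left out, higher genes ranged from 0 to 3 and lower genes from 1 to 16. The replicate block (the numbers 2 to 5 as a term) called 0 members, with a members' median of -0.10. At an unadjusted p below 0.05, 7 members were lower in that fit, against 2.57% of all genes tested. Over all genes tested, same-numbered libraries did not deviate together (correlations of -0.13 to 0.069), so the numbers were not taken as pairs. The fibrinogen chains went otherwise, with the same order of replicate numbers in both groups.

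Signs turned for members whose log2 fold change lay between -0.13 and 0.08. With library totals alone the log2 fold changes were 0.014 (Pros1), 0.0087 (C1ra), 0.0066 (Cfi) and 0.0082 (C4bp). Without the 20 most abundant genes in library sizes they were 0.0071 (F10), 0.0094 (Klkb1), 0.035 (Pros1), 0.034 (C1ra), 0.028 (Cfi) and 0.028 (C4bp). F9 was -0.0020 with no filter. F2 and F9 were -0.0018 and -0.0014 on log2(TPM + 1), -0.032 and -0.031 on log2(FPKM + 1), and -0.032 and -0.032 on log2(FPKM + 0.1), where Serpinc1 was -0.010 on both FPKM scales. With the title ending as a term they were -0.0098 (F9), 0.067 (Klkb1), 0.00040 (Proc) and 0.058 (C1ra). Among titles ending in "_1" they were 0.027 (F10), 0.0046 (Proc), 0.023 (Pros1), 0.053 (C1ra) and 0.041 (Cfi). With each library left out the ranges were -0.0020 to 0.16 (F13b), -0.035 to 0.049 (F2), -0.097 to 0.11 (F9), -0.11 to 0.00041 (F10), -0.18 to 0.092 (Klkb1), -0.034 to 0.12 (Serpinc1), -0.099 to 0.13 (Pros1), -0.056 to 0.048 (C1ra), -0.0056 to 0.082 (C1s1), -0.073 to 0.052 (Cfi), -0.10 to 0.098 (C4bp) and -0.23 to 0.027 (Serping1). The cause was not tested. With 4 libraries a group the 95% intervals of single members span 0.37 to 1.46 on the log2 scale, which limits what could be called.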
